A study of Mus musculus with 17 samples.

Results

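The TAM receptors (Mertk, Axl and Tyro3), the bridging proteins that link a dying cell to its phagocyte (Gas6, Pros1 and Mfge8), the integrin subunits Itgav and Itgb5, the adaptor Elmo1 and the scavenger receptor Scarb1 were followed through all 17 RNA-seq libraries of a study of CXCL12 and CXCR4 in the mouse mammary gland. The 10 members are the genes whose listed symbol equals one of these names, out of 35147 gene symbols listed in at least 1 of the 4 tables. All 10 were listed in the tables of the CXCR4 sort, the culture experiment and the P4 cells, and 9 of 10 in the table of the knockout experiment, where no row carried the symbol Tyro3.

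Mertk, Axl and Tyro3 are receptor tyrosine kinases. They do not bind the dying cell themselves: Gas6 and Pros1, a pair of vitamin K-dependent proteins, hold exposed phosphatidylserine at one end and the receptor at the other, Gas6 binding all TAM receptors and Pros1 binding Tyro3 and Mertk. Mfge8 does the same for the integrin formed by Itgav and Itgb5, Elmo1 works with Dock-family proteins to activate Rac for engulfment, and Scarb1 is a receptor for high-density lipoprotein that also binds phosphatidylserine. In the mammary gland this machinery is best known from involution, when milk-producing cells die in large numbers and are cleared; the glands studied here came from virgin mice.

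Macrophages were isolated from dissociated glands by F4/80 and CD11b. In the knockout experiment, 2 libraries each came from mice labelled wild type controls of genotype LysmCre+, from LysmCre+, Cxcr4fl/fl mice, which lose the chemokine receptor gene Cxcr4 in myeloid cells, from controls of genotype K8Cre+, and from K8Cre+, Cxcl12fl/fl mice, in which the chemokine gene Cxcl12 is deleted in luminal epithelial cells; both control groups carried the Cre allele. Lysm-Cre is driven by the lysozyme 2 promoter and is active in myeloid cells in general, and K8-Cre by the keratin 8 promoter, so the macrophages of the Cxcl12 knockout were not themselves the targeted cells. Wild type macrophages were also divided by CXCR4 into a positive fraction (2 libraries) and a negative fraction (1 library). Further wild type macrophages were cultured in RPMI with 2% serum and left untreated, given recombinant CXCL12, given the AKT inhibitor GSK690693, or given both, with 1 library each. P4 cells, the Lin-CD24+CD29high basal fraction enriched in mammary stem cells, gave 1 library from a K8Cre+ control and 1 from a K8Cre+, Cxcl12fl/fl mouse. Age, dose and duration of treatment are not given in the sources used here, nor whether the repeats came from separate mice, so p-values measure only the spread between these libraries, which may be technical.

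The macrophage tables held about 8602000 to 37233000 reads per library, estimated from the smallest step between low values, and 4.86% to 36.8% of listed genes were at 0. The number of reads of the P4 libraries is unknown. The knockout libraries stood apart from each other within groups: between the pair of libraries of a group, 27.9% to 59.6% of genes differed at least 2-fold, against 16.8% between the CXCR4-positive libraries. The first K8-Cre control library stood furthest out. Of 3232 genes whose median lay between 20 and 60 CPM (read counts scaled to library size) in the other knockout-experiment libraries, 507, or 15.7%, were under 1 CPM in it, against 0.0635% in the second K8-Cre control. The share was 8.87% in the first Lysm-Cre control, 5.41% in the first Cxcr4 knockout and at most 0.618% in the other libraries. Macrophage markers were present in all 15 macrophage libraries, with summed levels of the 11 markers between 1180.4 and 9184 CPM. Cxcr4 itself was at 819 and 318 CPM in the Lysm-Cre controls and at 232 and 140.4 CPM in the Cxcr4 knockouts, lower in both but not absent. In bulk libraries such as these, fewer cells of a type and less RNA per cell cannot be told apart.

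The members lie on 6 chromosomes of the mouse genome (GRCm38 with the GENCODE M21 annotation) and all are protein-coding. Among the receptors, Mertk spans chr2:128698956-128802894, Tyro3 chr2:119797733-119818104 and Axl chr7:25757273-25788705. Among the bridges, Gas6 spans chr8:13465374-13494490, Pros1 chr16:62854307-62929346 and Mfge8 chr7:79133768-79149060. Itgav spans chr2:83724397-83806916, Itgb5 chr16:33829665-33949338, Elmo1 chr13:20090596-20608353 and Scarb1 chr5:125277087-125341094. RefSeq promoters (GRCm38.p6, the 250 bases before the annotated start) matched 9 members, with 2 start sites for Elmo1 and therefore 10 promoters. The promoters of Mertk, Axl, Gas6 and Itgb5 are shown because these members had the largest differences between CXCR4-positive and CXCR4-negative macrophages; they read 5′ to 3′ on the gene's strand, from chr2:128698665-128698914 (plus strand), chr7:25788734-25788983 (minus strand), chr8:13494536-13494785 (minus strand) and chr16:33829415-33829664 (plus strand). Capitals mark the GC box GGGCGG and the PU-box core GAGGAA on either strand.
Mertk: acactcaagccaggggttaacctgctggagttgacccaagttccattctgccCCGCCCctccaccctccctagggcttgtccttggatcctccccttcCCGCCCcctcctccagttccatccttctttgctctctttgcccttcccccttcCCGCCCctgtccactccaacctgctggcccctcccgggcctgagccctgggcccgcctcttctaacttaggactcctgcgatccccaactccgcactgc
Axl: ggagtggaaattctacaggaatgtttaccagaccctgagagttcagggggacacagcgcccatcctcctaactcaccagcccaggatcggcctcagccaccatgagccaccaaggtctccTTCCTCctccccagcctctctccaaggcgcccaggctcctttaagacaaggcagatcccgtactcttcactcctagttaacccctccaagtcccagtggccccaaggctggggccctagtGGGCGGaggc
Gas6: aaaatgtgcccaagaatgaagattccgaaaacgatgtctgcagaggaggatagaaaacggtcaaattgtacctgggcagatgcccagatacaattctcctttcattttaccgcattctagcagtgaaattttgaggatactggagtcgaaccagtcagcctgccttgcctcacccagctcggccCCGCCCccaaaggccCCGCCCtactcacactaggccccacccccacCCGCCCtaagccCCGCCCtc
Itgb5: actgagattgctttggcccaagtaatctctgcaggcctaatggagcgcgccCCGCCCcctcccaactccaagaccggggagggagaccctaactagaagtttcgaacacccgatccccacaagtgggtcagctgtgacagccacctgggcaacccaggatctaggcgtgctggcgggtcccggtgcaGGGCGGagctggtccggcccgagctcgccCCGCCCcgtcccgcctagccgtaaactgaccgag

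The GC box, a binding sequence of SP-family factors, was found in 8 of the 10 promoters, against 32.7% of 32851 RefSeq promoters and 55.7% of the 12451 promoters of genes tested in the CXCR4 sort. All 4 promoters printed above held it: 3 copies in Mertk, 1 in Axl, 4 in Gas6 and 3 in Itgb5. The PU-box core, bound by the myeloid factor PU.1, was found in 3 of 10, those of Axl, Mfge8 and Itgav, against 23.3% of all promoters. The AP-1 site TGANTCA and the E-box CACGTG were in 0 of 10, against 6.75% and 6.02% of all promoters. Both strands were searched for each sequence. None of the 10 held TATAAA. These are matches of letters in a short window and say nothing of binding.

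The CXCR4 sort divides mammary macrophages by the receptor that senses CXCL12, and 7 of the 9 tested members were called between its fractions, 2 positive libraries against 1 negative library. No call remained with no shared trend between level and spread or with no filter on low values. Mertk, Axl, Gas6, Pros1, Mfge8 and Itgb5 were higher in the CXCR4-positive cells, Elmo1 was lower, and Itgav and Scarb1 did not pass the test. The 6 of 9 tested members called higher compare with 5.06% of the 14411 genes tested, and the 1 called lower with 3.4%; Tyro3 was too low to be tested. The median difference over the 9 members was 2.20 in log2(CPM + 1), against -0.20 over all genes tested. The members and gene lists were chosen with earlier results of these data known, and the genes tested were not matched to the members in level. Members set beside all genes, here and below, are therefore descriptions and not independent support. A positive difference here and below is CXCR4-positive minus CXCR4-negative.

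Among the receptors, Mertk, which macrophages use to engulf apoptotic cells under steady conditions, stood at 121 and 117 CPM in the CXCR4-positive libraries and at 6.38 CPM in the CXCR4-negative library. Both positive libraries lay far above the negative one, and the difference was 4.02 in log2(CPM + 1) (SE 0.46, 95% interval 3.13 to 4.92, limma adjusted p = 3.29e-16). Axl, the TAM receptor more often tied to inflammation and to its ligand Gas6, stood at 452 and 504 CPM against 41.5 CPM. Its difference was 3.49 (SE 0.34, interval 2.82 to 4.16, limma adjusted p = 6.02e-22). Tyro3, known mainly from the nervous system, was at 2.50 and 0.0368 CPM in the positive libraries, about 72.0 reads and 1 read, and had no read in the negative library. The positive repeats thus differed from each other nearly as much as the higher of them did from the negative library, and no difference is given for Tyro3.

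The ligands followed the receptors. Gas6 was at 193 and 231 CPM in the CXCR4-positive libraries and at 10.7 CPM in the CXCR4-negative library, a difference of 4.18 (SE 0.40, interval 3.40 to 4.96, limma adjusted p = 2.82e-23), the largest among the members. Pros1, the anticoagulant protein S, was at 326 and 267 CPM against 63.2 CPM, a difference of 2.20 (SE 0.35, limma adjusted p = 2.02e-08). Mfge8, the bridge to the integrin, was at 40.3 and 60.9 CPM against 16.9 CPM, a difference of 1.5 (SE 0.50, limma adjusted p = 0.0365). Of the called members, Mfge8 lay closest to the threshold: its adjusted p was 0.0632 with a pseudocount of 0.1 CPM and 0.0584 when genes needed at least 5 CPM.

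The integrin subunits had differences of unlike size. Itgb5 was at 159 and 178 CPM against 17.6 CPM, a difference of 3.19 (SE 0.40, limma adjusted p = 1.55e-13). Itgav, which also pairs with other beta subunits, was at 328 and 369.8 CPM against 187 CPM, and its difference of 0.89 (SE 0.33, limma adjusted p = 0.0764) missed the threshold; with median-ratio scaling it was 1.06 with adjusted p = 0.0336. The cytoplasmic adaptor Elmo1 ran the other way, at 389.5 CPM in the CXCR4-negative library against 177 and 179 CPM in the positive pair. Its difference was -1.12 (SE 0.34, limma adjusted p = 0.0147), and with median-ratio scaling -0.96 with adjusted p = 0.0707. Scarb1 was at 70.8 and 41.9 CPM against 68.8 CPM, so that the negative library lay between the positive ones (difference -0.33, SE 0.43, adjusted p = 0.733).

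**Figure D1:**
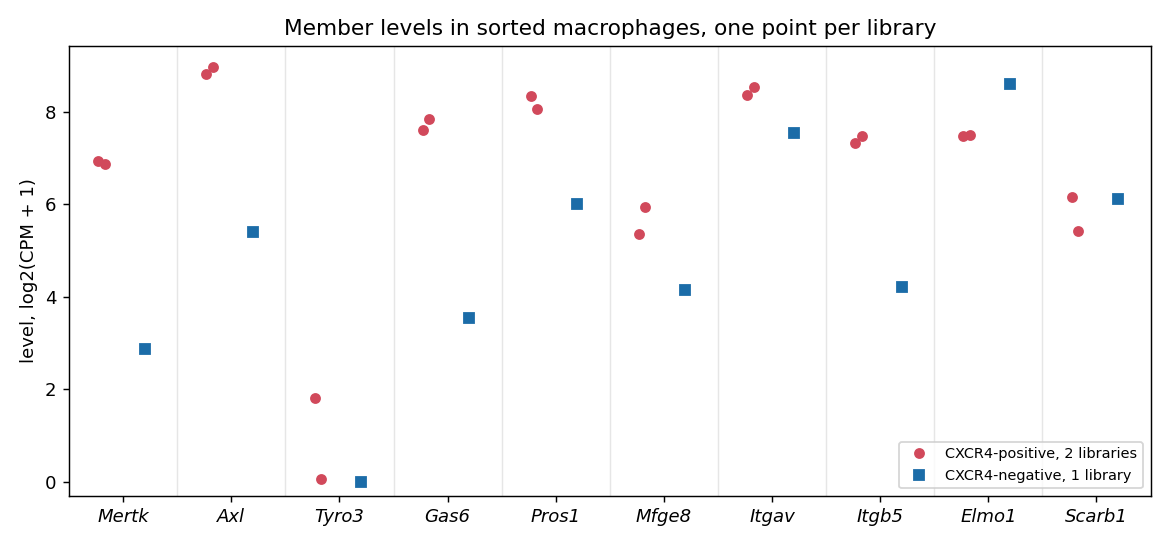
Levels of the 10 members, as log2(CPM + 1) on the vertical axis, in the 2 CXCR4-positive libraries (circles) and the 1 CXCR4-negative library (square). For Mertk, Axl, Gas6, Pros1 and Itgb5 the circles sit far above the square, Elmo1 is the reverse, and Tyro3 is near 0 in 2 of the 3 libraries.

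The adjusted p-values of the sort lean on a spread shared by all genes, since 3 libraries leave 1 residual degree of freedom and the estimated prior degrees of freedom were infinite. With no shared trend between level and spread, or with no filter on low values, 0 of the 7 calls and 0 of all genes passed, and the lowest adjusted p over the called members was 0.228 and 0.258. The sizes did not rest on 1 positive library: against each alone, the differences were 4.00 and 4.05 for Mertk, 3.41 and 3.57 for Axl, 4.06 and 4.31 for Gas6, and 3.10 and 3.27 for Itgb5. All of these differences rest on the 1 CXCR4-negative library, which could not be left out in the same way.

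The fractions also differed in markers of cell type. The 11 macrophage markers summed to 8527 and 9184 CPM in the CXCR4-positive libraries and to 1815 CPM in the CXCR4-negative library, and 10 of the 11 were called higher in the positive cells. The 6 monocyte markers summed to 623 and 665 CPM against 1078 CPM, and the 8 dendritic cell markers to 322 and 234 CPM against 866 CPM. The dendritic cell markers did not all go the same way. Of these 8, 2 were higher in the positive cells, with a difference of up to 2.54. The median difference of the 8 was -1.93 and the lowest -5.16. The 8 fibroblast markers summed to 200 and 458 CPM against 98.4 CPM. None of these markers was at 0 in any of the 3 libraries. Cxcr4 mRNA was at 632 and 875 CPM in the positive and 772 CPM in the negative fraction, so that the negative library lay between the positive ones for the gene that defines the sort. The part of cell composition in the differences of the members was not tested.

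The rest of the efferocytosis pathway was read from a list of 77 genes, 70 of which could be tested in the sort: 16 were called higher in CXCR4-positive cells, 8 lower, and 46 were not called. The median over the 70 was 0.44, against -0.20 over all genes tested. Among other receptors and tethers 5 of 14 were called higher and 3 lower. Among other bridges and signals 3 of 11 were higher and 1 lower, the 3 being the complement C1q chains, which opsonise dying cells. The engulfment machinery had 0 of 17 higher and 3 lower, in the direction of Elmo1. Genes of digestion and lipid export after engulfment had 6 of 15 higher and 1 lower, and genes of TAM regulation 2 of 13 higher and none lower. The 6 with the lowest p were C1qc (difference 6.44), the scavenger receptor Stab1 (6.07), C1qb (5.54), C1qa (5.24), the lipopolysaccharide co-receptor Cd14 (3.10) and the fatty acid and phosphatidylserine receptor Cd36 (2.89), all higher in CXCR4-positive cells. The C1q genes are also on the macrophage marker list.

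Levels per kilobase of annotated exon put the members in order within the CXCR4-positive cells. The length was that of all annotated exons of a gene merged, from 2.548 kb for Gas6 to 12.58 kb for Elmo1. The order depends on this choice of length. Axl led with 94.96 ± 7.36 CPM per kb (SD, n = 2), followed by Gas6 with 83.2 ± 10.4 and Pros1 with 72.5 ± 10.2. The libraries of Axl and Gas6 overlapped, as did those of Gas6 and Pros1; no other neighbours in the order did. Itgb5 stood at 47.5 ± 3.84, Itgav at 32.5 ± 2.76 and Mertk at 27.5 ± 0.639 CPM per kb. Elmo1 at 14.2 ± 0.126, Mfge8 at 10.8 ± 3.10, Scarb1 at 6.63 ± 2.41 and Tyro3 at 0.205 ± 0.281 CPM per kb closed the order. In the 1 CXCR4-negative library the order was led by Elmo1 at 31.0, Itgav at 17.4 and Pros1 at 15.5 CPM per kb, with Axl at 8.25, Gas6 at 4.196 and Mertk at 1.47.

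The knockout experiment asks whether macrophage Cxcr4, or Cxcl12 made by luminal cells, alters the macrophages. For the members no difference passed the test: 0 of 9 were called in the Cxcr4 knockout, 0 of 9 in the Cxcl12 knockout and 0 of 9 for the difference between them, with 0 of 9 at an unadjusted limma p under 0.05 in each. Few genes were called at all, 1 of 17275 (0.00579%) in the Cxcr4 knockout, 0 (0%) in the Cxcl12 knockout and 1 (0.00579%) for the difference. At an unadjusted p under 0.05 these shares were 3.33%, 2.84% and 2.48%. The member medians were -0.04 and -0.04 in log2(CPM + 1), against 0.14 and 0.36 over all genes tested, with a positive value meaning higher in the knockout. At 2 libraries against 2 that differed this much from each other, the 95% intervals ran from 2.29 (Elmo1) to 4.601 (Mertk) log2 units wide, so that changes of 2-fold were not detectable for any member.

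Axl was at 204 and 168 CPM in the Lysm-Cre controls and at 115 and 124 CPM in the Cxcr4 knockouts. Both knockouts lay below both controls, with a difference of -0.63 (SE 0.59, interval -1.81 to 0.55). It was the 1 member of 9 whose groups did not overlap in that knockout, where 25.5% of all genes tested showed the same separation. Mertk was at 134 and 31.0 CPM in the controls and 71.7 and 30.9 CPM in the knockouts, the first control being the high one (difference -0.45, SE 1.16). Gas6 was at 76.2 and 86.4 CPM in the controls and 71.0 and 117 CPM in the knockouts (difference 0.16, SE 0.75), and Pros1 at 234 and 209 against 245 and 162 CPM (difference -0.15, SE 0.59). For both ligands the control pair lay between the knockout pair.

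For the integrin axis, Mfge8 was at 82.7 and 68.8 CPM in the Lysm-Cre controls and 37.3 and 94.2 CPM in the Cxcr4 knockouts (difference -0.34, SE 0.66). Itgav was at 70.5 and 154 against 184 and 141 CPM (difference 0.63, SE 0.58). Itgb5 was at 4.03 and 24.8 against 17.8 and 29.7 CPM (difference 1.08, SE 1.12). The first control was the low library for both subunits; without it the differences were 0.072 for Itgav and -0.0997 for Itgb5, and 0.59 for Mertk. Elmo1 was at 189.7 and 134 against 273 and 159.8 CPM (difference 0.39, SE 0.58), and Scarb1 at 36.1 and 56.3 against 37.7 and 50.7 CPM (difference -0.04, SE 0.78).

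**Figure D2:**
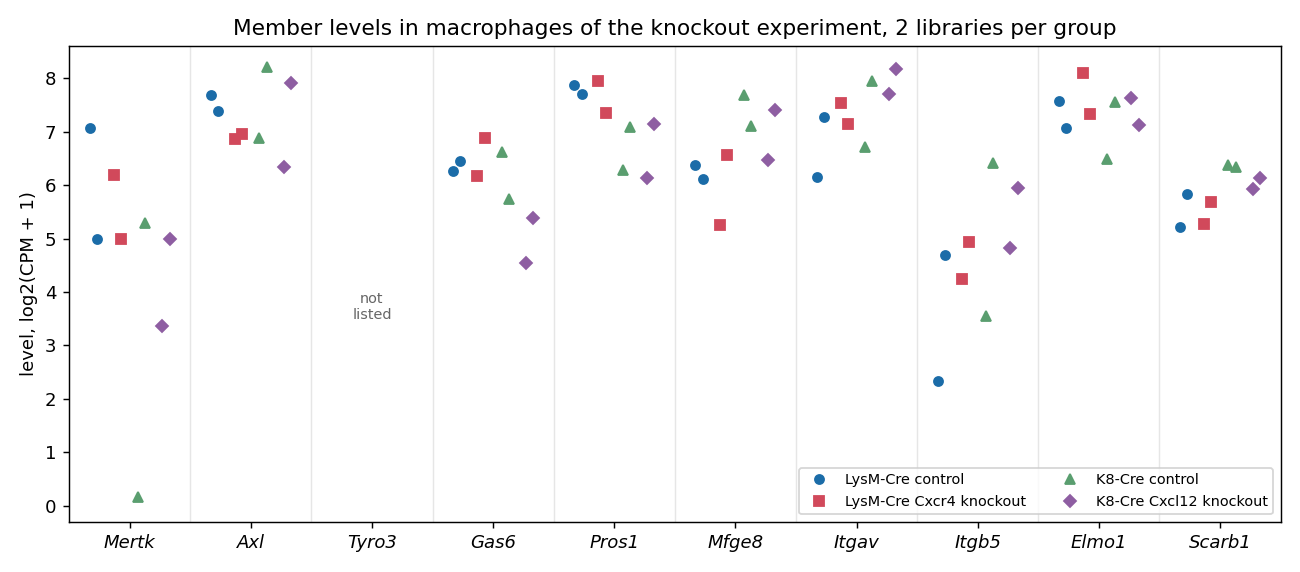
Levels of the members, as log2(CPM + 1) on the vertical axis, in the 8 libraries of the knockout experiment, 2 points per group. Knockouts and controls of each line intermingle for most members, the first K8-Cre control lies near 0 for Mertk, and Pros1 is higher in the 4 Lysm-Cre libraries than in the 4 K8-Cre libraries.

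In the macrophages of mice that lacked Cxcl12 in luminal cells, Gas6 was at 22.5 and 40.6 CPM, against 97.0 and 52.3 CPM in the K8-Cre controls. Both knockouts lay below both controls, with a difference of -1.21 (SE 0.75, interval -2.71 to 0.29, adjusted p = 1 by limma). Scarb1 showed the same separation at a smaller size, with 59.9 and 69.3 CPM against 82.0 and 80.4 CPM (difference -0.33, SE 0.78). These were 2 of 9 members, and 28.5% of all genes tested were separated as well. The 11 macrophage markers summed to 2031 and 3015 CPM in the Cxcl12 knockouts and to 3205 and 3763 CPM in the K8-Cre controls. Their sum was separated in the same direction, but not every marker was. Adgre1, at 350 and 549 CPM against 470 and 702 CPM, overlapped, and 1 of the 11 had a difference above 0. The part of the macrophage markers in the Gas6 and Scarb1 values was not tested. Mertk was at 9.33 and 30.9 CPM in the knockouts and at 0.116 and 38.4 CPM in the controls, and its difference of 1.45 (SE 1.16) was set by the first control library, where it had 1 read. Without that library the difference was -1.12, the reverse direction. That library held many other genes of similar level near 0, as given above.

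Axl was at 80.6 and 242 CPM in the Cxcl12 knockouts and 117 and 294 CPM in the K8-Cre controls (difference -0.41, SE 0.59), with the second library of each group the high one. Pros1 was at 69.5 and 141 against 76.7 and 135 CPM (difference -0.04, SE 0.59). Mfge8 was at 87.7 and 169 against 207 and 137 CPM (difference -0.46, SE 0.66). Itgav was at 208 and 289.6 against 105 and 247 CPM (difference 0.61, SE 0.58), and Itgb5 at 27.2 and 60.8 against 10.7 and 84.2 CPM (difference 0.40, SE 1.12). Elmo1 was at 197 and 139.6 against 89.4 and 188 CPM (difference 0.35, SE 0.58). For these members the spread within a group exceeded the difference between groups. Macrophage markers summed to 4243 and 3355.6 CPM in the Lysm-Cre controls and to 5317 and 3893 CPM in the Cxcr4 knockouts.

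Of the 77 other efferocytosis genes, 72 were tested in the knockout experiment and 0 were called in the Cxcr4 knockout, the Cxcl12 knockout or the difference between them. Their medians were 0.03 in the Cxcr4 knockout and 0.02 in the Cxcl12 knockout. The difference between the knockouts was largest for Mertk among the members, at -1.90 (SE 1.64), and for Gas6 at 1.37 (SE 1.07). Both intervals included 0 (-5.16 to 1.35 and -0.74 to 3.49), and without the first K8-Cre control library the Mertk value was 0.67.

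The Cre lines were set side by side in a comparison added after the values had been seen, in which 0 of 9 members passed adjustment by limma, against 8 genes (0.0463%). Pros1 was at 162 to 245 CPM in the 4 Lysm-Cre libraries and at 69.5 to 141 CPM in the 4 K8-Cre libraries, without overlap, a difference of 1.05 (SE 0.42, interval 0.22 to 1.89). Scarb1 was at 36.1 to 56.3 CPM in the Lysm-Cre and 59.9 to 82.0 CPM in the K8-Cre libraries, also without overlap (difference -0.69, SE 0.55). These were 2 of 9 members, against 2.5% of all genes tested. Pros1, Mertk (2.36, SE 0.82) and Mfge8 (-1.09, SE 0.47) had an unadjusted limma p under 0.05, which made 3 of 9 members against 3.72% of genes. The Mertk value was 0.55 without both first control libraries. Line, Cre and any difference in mice or handling cannot be told apart here.

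**Figure D3:**
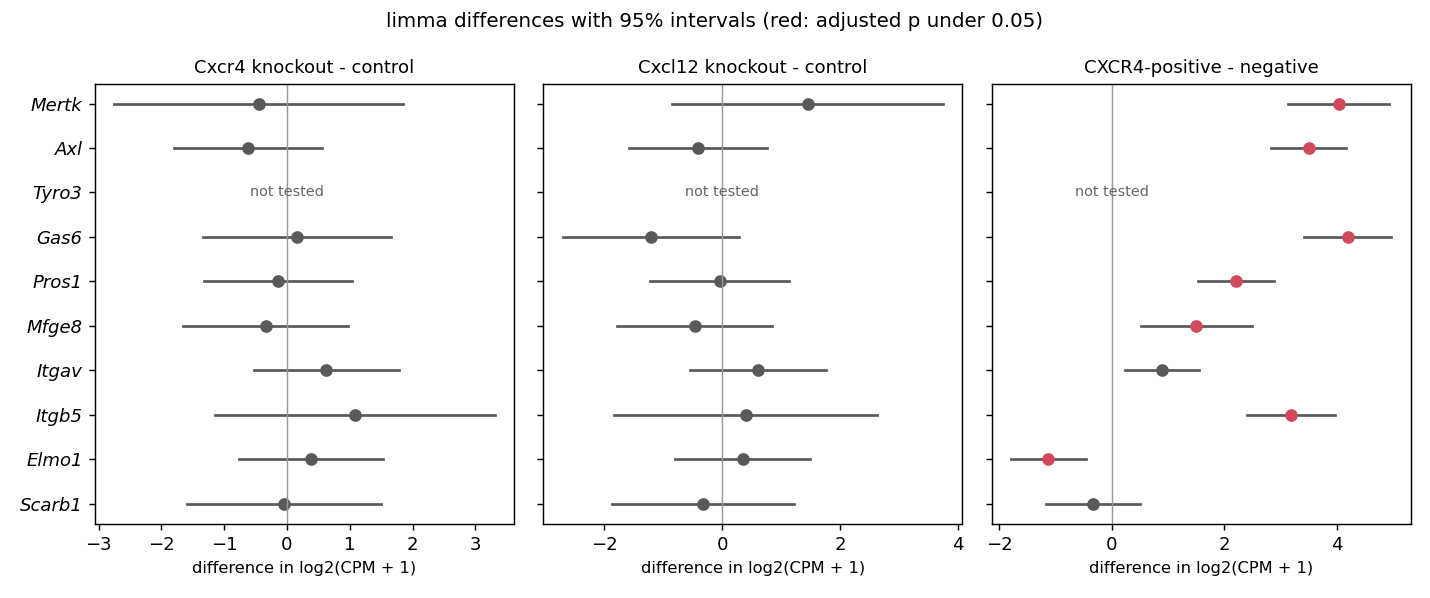
Differences in log2(CPM + 1) with 95% intervals from limma for the Cxcr4 knockout, the Cxcl12 knockout and the CXCR4 sort, 1 row per member, red where the adjusted p was under 0.05. All intervals in the knockout panels include 0, while 7 members are red in the sort panel; horizontal scales differ between panels.

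Within the knockout experiment the order of levels per kilobase was loose. Pros1 led in both Lysm-Cre groups, with 54.1 ± 4.34 CPM per kb (SD, n = 2) in the controls and 49.8 ± 14.4 in the Cxcr4 knockouts. Axl led in both K8-Cre groups, with 40.9 ± 24.9 CPM per kb in the controls and 32.0 ± 22.6 in the Cxcl12 knockouts. Neighbours in the order overlapped in 7 of 8 pairs in each control group and in 6 of 8 pairs in each knockout group.

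Some relations between members held in most libraries whatever the treatment. Axl exceeded Mertk per kilobase in 15 of 15 macrophage libraries, by ratios of 1.31 to 868 with a median of 4.66; the highest ratio came from the first K8-Cre control library, with its 1 Mertk read. Pros1 exceeded Gas6 in 12 of 15 libraries (median ratio 1.93), the exceptions being the second CXCR4-positive, the first K8-Cre control and the second Cxcr4 knockout library. Itgav exceeded Itgb5 in 12 of 15 (median ratio 3.23), and both CXCR4-positive libraries and the second K8-Cre control were the exceptions. The ligand Gas6 exceeded its receptor Axl in 4 of 15.

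Genes with the pattern most like that of Mertk, Axl and Gas6 were ranked by Pearson's r over the 15 macrophage libraries, each table centred on its own mean, among 6770 genes. For Mertk these were Ctns (r = 0.94), Acp5 (0.92), Cbr2 (0.91), Slc39a6 (0.90) and Rcan1 (0.90). For Axl they were Stab1 (0.93), Tgfbr1 (0.93), Sash1 (0.92), Ms4a7 (0.92) and Selenop (0.91). For Gas6 they were Itm2b (0.94), Ednrb (0.93), Cd209f (0.93), Siglec1 (0.92) and Serinc3 (0.92). The libraries share the CXCR4 contrast and the outlying libraries named above, so these are descriptions of 15 points only. Among the members, the highest r was between Gas6 and Pros1 (0.77); that between Axl and Gas6, 0.77 over all 15, was 0.08 over the 8 knockout-experiment libraries alone.

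Cultured macrophages gave 1 library per treatment, so the differences below have no replicate check. A difference was counted when it reached 2-fold and the higher library held at least 10 CPM. Itgb5 was higher with CXCL12 alone and with GSK690693 alone than without treatment, and was nearly absent when both were given. Mertk was nearly absent in the library given both, and Mfge8 and Elmo1 were lowest in it. Axl, Gas6 and Pros1 did not reach a 2-fold difference between any compared pair of treatments. The treated libraries share the untreated library or each other as reference, so the comparisons are not independent.

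Mertk was at 39.1 CPM untreated, 33.8 with CXCL12, 26.3 with GSK690693 and 1.31 CPM with both. The library given both was far below the other 3, with log2 ratios of -4.80 to untreated, -4.59 to CXCL12 and -4.23 to GSK690693. Axl was at 158, 112, 161 and 187 CPM in the same order, lowest with CXCL12 alone. Tyro3 had 1 read untreated (0.0473 CPM), about 30.0 reads with CXCL12 (1.03 CPM), about 132 reads with GSK690693 (9.22 CPM) and none with both. Against the 3 reads that a count of 0 allows in that last library, the measured Tyro3 level with GSK690693 alone was 49.3-fold higher. This allows for the counting error of the 0 only, not for that of the 132 reads. Tyro3 stayed under the 10 CPM needed for a count.

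Gas6 was at 22.9, 20.1, 22.3 and 31.4 CPM (untreated, CXCL12, GSK690693, both), and Pros1 at 148, 147, 149 and 223 CPM. Both ligands were within a narrow range in the first 3 libraries and highest in the library given both. Mfge8 was at 62.8, 41.6, 95.9 and 26.8 CPM, highest with GSK690693 and lowest with both, with log2 ratios of -1.23 (both against untreated) and -1.84 (CXCL12 added to GSK690693). Itgav was at 1010.2, 821, 670.2 and 654 CPM, highest untreated. Itgb5 was at 6.53, 19.1, 31.6 and 0.282 CPM, with log2 ratios of 1.53 for CXCL12 and 2.26 for GSK690693 against untreated, and of -5.65 when GSK690693 was added to CXCL12 and -6.38 when CXCL12 was added to GSK690693. The direction for Itgb5 thus turned with the presence of the other agent.

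Elmo1 was at 109.7, 120.0, 172 and 62.6 CPM, lowest with both, and its log2 ratio for CXCL12 added to GSK690693 was -1.46. Scarb1 was at 154, 136, 254 and 279 CPM, higher in the 2 libraries with the inhibitor, and its log2 ratio for GSK690693 added to CXCL12 was 1.03. At the median-ratio scaling the same ratio was 1.15, and that of Scarb1 for both agents against untreated was 1.00 in place of 0.86.

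**Figure D4:**
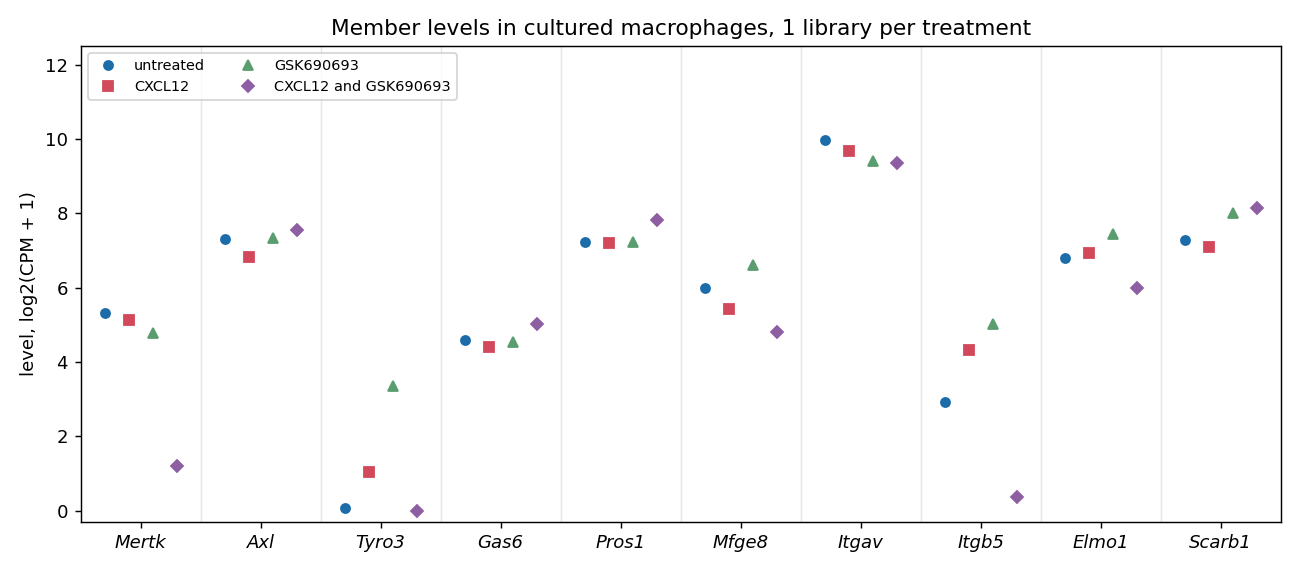
Levels of the 10 members, as log2(CPM + 1) on the vertical axis, in the 4 cultured macrophage libraries, 1 per treatment. The diamond of the library given CXCL12 and GSK690693 lies far below the other points for Mertk and Itgb5, while Axl, Gas6 and Pros1 form tight groups.

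The counts can be read against all genes with at least 10 CPM in the higher library. Against untreated cells, CXCL12 gave 1 member of 9 past 2-fold, higher, where 12% of 9678 genes were higher and 14.3% lower. GSK690693 gave 1 of 9, higher, with 19.9% of genes higher and 16.4% lower. Both agents together gave 2 of 8, lower, with 22.9% higher and 25.3% lower. GSK690693 added to CXCL12 gave 1 of 9 higher and 2 of 9 lower, with 23.6% of genes higher and 24.2% lower. CXCL12 added to GSK690693 gave 4 of 9, all lower (Mertk, Mfge8, Itgb5 and Elmo1), with 21.4% higher and 27.5% lower.

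The library given both agents had 30.9% of listed genes at 0. Of 3047 genes with a median of 20 to 60 CPM in the other 3 libraries, 365, or 12.0%, were under 2 CPM in it, against 0.659% to 2.10% for each of the other libraries in turn. The macrophage marker Fcgr1 was at 0 there and in the untreated library. The part of this library as a whole in the low Mertk and Itgb5 values was not tested. The cultured libraries also carried endothelial markers at a summed 1517 to 2070 CPM, against 43.3 to 198 CPM in the uncultured macrophage libraries, and macrophage markers at 1180.4 to 1686 CPM. Adipocyte markers summed to 338 to 423 CPM in the cultured libraries, against 0.636 to 126 CPM in the uncultured ones. Of these 6 markers, 4 were listed for the culture, 3 for the knockout experiment and 2 for the CXCR4 sort, so the sums are not of the same genes. The part of endothelial or adipocyte RNA in the levels of the members in culture was not tested.

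Of the other efferocytosis genes, 64 to 66 reached 10 CPM in a given comparison. In each comparison and direction, a smaller share of them passed 2-fold than of all genes of that level. CXCL12 alone gave 3 of 65 higher and 2 lower than untreated, against 12% and 14.3% of all genes. Abca7, a lipid transporter, went from 7.57 to 24.1 CPM and the cytokine signalling inhibitor Socs1 from 21.7 to 45.3 CPM. The lipid-sensing receptor Nr1h3 went from 0.236 to 11.6 CPM. Cd209b went from 18.2 to 4.37 CPM and the lysosomal nuclease Dnase2a from 44.5 to 21.3 CPM. GSK690693 alone gave 9 of 66 higher and 5 lower, against 19.9% and 16.4% of all genes. Nr1h3 reached 18.9 CPM, Elmo3 went from 0.568 to 11.4 CPM and Abca7 to 41.3 CPM. The phosphatidylserine receptor Timd4 had 17.5 CPM untreated and no read with GSK690693, Itgax went from 98.7 to 26.1 CPM and Socs1 to 6.35 CPM.

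Both agents together gave 7 of 64 higher and 11 lower than untreated, against 22.9% and 25.3% of all genes. Abca7 was at 52.6, Havcr2 at 44.3 (from 10.7) and C1qa at 95.9 CPM (from 25.6). Gulp1 and Nr1h2 were among the lowest relative to untreated, at 0.0624 CPM, which is 1 read each. GSK690693 added to CXCL12 gave 8 of 64 higher and 11 lower, against 23.6% and 24.2% of all genes. C1qa (from 21.5 CPM), Pparg (36.7 to 118 CPM) and Stab1 (51.2 to 148 CPM) led upward, with Nr1h2 and Gulp1 among the lowest downward. CXCL12 added to GSK690693 gave 5 of 65 higher and 11 lower, against 21.4% and 27.5% of all genes. Socs1 (to 28.8 CPM), Havcr2 (from 10.9 CPM) and Itgax (to 68.5 CPM) led upward. Nr1h2 and Nr1h3 were among the lowest downward, Nr1h3 also with 1 read. Nr1h2, Nr1h3 and Gulp1 were low in the same library as Mertk and Itgb5. Nr1h3 was also low in the untreated library, at 0.236 CPM. As given above, 12.0% of 3047 genes of 20 to 60 CPM elsewhere were under 2 CPM in the library given both. The part of that library as a whole in these values was not tested.

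The bulk libraries of P4 cells carried the bridges and the integrin at high levels and the macrophage receptor Mertk at a low level. FPKM (fragments per kilobase of transcript, scaled to library size) put Itgav at 256, Pros1 at 218 and Mfge8 at 196 in the control. Gas6 followed at 88.0, Axl at 80.8 and Itgb5 at 33.3 FPKM. Scarb1 at 9.86, Elmo1 at 4.35, Tyro3 at 4.16 and Mertk at 3.34 FPKM closed the order. Basal epithelial markers summed to 5518 and 7119 FPKM in the control and knockout, and macrophage markers to 16.5 and 21.0 FPKM. Fibroblast markers, at 409 and 586 FPKM, and luminal epithelial markers, at 361 and 479 FPKM, were present in both. The part of fibroblast and luminal RNA in the levels of the members was not tested.

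In P4 cells of the Cxcl12 knockout, 0 of the 6 members with at least 10 FPKM reached a 2-fold difference from the control, against 879 genes, or 13.3%. Itgav had the widest gap, from 256 to 143 FPKM (log2 ratio -0.83). Gas6 went from 88.0 to 137 FPKM (0.63) and Itgb5 from 33.3 to 49.0 FPKM (0.54), while Axl (80.8 and 76.9 FPKM), Pros1 (218 and 230.1 FPKM) and Mfge8 (196 and 195.6 FPKM) were close. Mertk at 3.34 and 5.85, Tyro3 at 4.16 and 2.85, Elmo1 at 4.35 and 7.01 and Scarb1 at 9.86 and 8.07 FPKM stayed under 10 FPKM. With 1 library per genotype none of these has a replicate check. Cxcl12 itself was at 270 FPKM in the control and 350.0 FPKM in the knockout P4 cells. K8-Cre targets luminal cells, and luminal epithelial markers summed to 361 and 479 FPKM in these libraries. The part of luminal RNA in the Cxcl12 values was not tested.

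**Figure D5:**
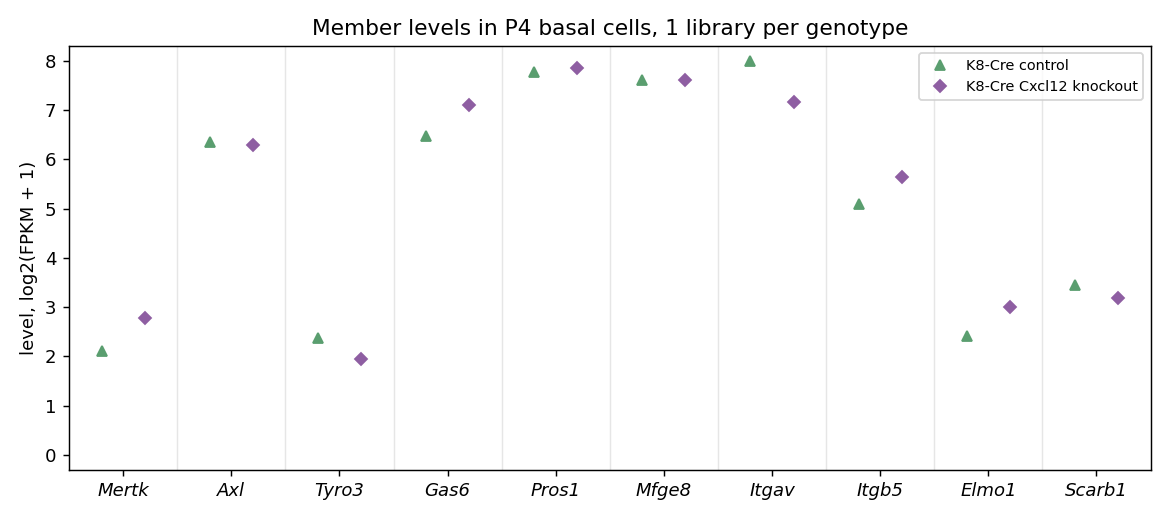
Levels of the 10 members in P4 basal cells, as log2(FPKM + 1) on the vertical axis, with 1 library from the K8-Cre control (triangle) and 1 from the Cxcl12 knockout (diamond). The points of a member lie close together, with Itgav showing the widest gap among the 6 members of at least 10 FPKM.

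Of the other efferocytosis genes, 42 reached 10 FPKM in P4 cells, 3 past 2-fold higher and 3 lower in the knockout. These shares are close to those of all 6599 genes of that level, 7.99% higher and 5.33% lower. Cd36 went from 5.17 to 22.3 FPKM, Cd14 from 4.45 to 12.2 FPKM and Socs3 from 89.4 to 188 FPKM. Itgb3, another partner of Itgav, went from 20.9 to 7.54 FPKM, the vitamin K enzyme Vkorc1, which supports the carboxylation of Gas6 and Pros1, from 13.3 to 5.49 FPKM and Socs1 from 14.7 to 6.85 FPKM. Adipocyte markers summed to 7.22 FPKM in the control and 27.4 FPKM in the knockout library, and Cd36 is also expressed by adipocytes. The part of adipocyte RNA in these values was not tested.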

How the data were processed

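Macrophage values were deposited by the authors as log2 values of CPM plus 0.0001, in 1 table for each of 3 experiments, and P4 values were deposited as FPKM. The submitters' processing notes name STAR 2.7.8a, Partek and the build hg38, although the labels give mouse; the annotation used for counting, strand setting and FPKM tool are not given in the sources used here. Gene starts in the knockout table matched GENCODE M21 for 99.3% of 19314 genes compared. Tables were normalized separately, so levels were tested only within a table. Whole reads were not recovered: 75.1% to 90.0% of low values lay within 0.05 of a whole multiple of the smallest step, so the values were kept as CPM and no count test was run, and read numbers are estimates. Rows without a gene name (429) and repeats of a symbol with the lower level (91 in the culture table, 27 in the P4 table) were dropped.

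log2(CPM + 1) was tested with limma 3.58.1 (R 4.3.3, mean-variance trend, Benjamini-Hochberg adjustment over all genes tested, threshold 0.05) among genes that reached 1 CPM in 2 or more libraries: 17275 genes over the 8 knockout-experiment libraries with 4 group means, and 14411 genes for 2 CXCR4-positive against 1 CXCR4-negative library. The lone library was assumed to vary like the positive ones. A fold change on this scale understates the change of low genes. The script was checked on simulated data. Culture and P4 libraries, 1 per group, were compared as log2 ratios after adding 0.0993 CPM or 1 FPKM, with no test; a difference was counted at 2-fold where the higher of the compared values reached 10 CPM or FPKM. All 10 members are named throughout. Other efferocytosis genes are named where called (up to 6, lowest p) or, without replicates, as the 3 largest ratios each way; 1 gene that this rule would name is not reported here. The members, gene lists and marker lists were chosen with earlier results of these data known. Levels per kilobase used the merged length of all exons of a gene in GENCODE M21, and orders and ratios per kilobase depend on this choice. The comparison of Cre lines was added after the data were seen. Alternatives were other pseudocounts, filters and scalings, no trend, array weights, a replicate block and leaving out libraries.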

Additional observations from a re-analysis of the deposited data

Results flagged for a closer look

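Itgb5 had opposite directions for the same agent depending on the other agent. CXCL12 gave a log2 ratio of 1.53 against untreated cells and of -6.38 when added to GSK690693. GSK690693 gave a log2 ratio of 2.26 against untreated cells and of -5.65 when added to CXCL12. Each rests on 1 library per treatment, so the difference was not tested. The 4 ratios draw on the same 4 libraries, and both negative ones share the library given both agents, where Itgb5 was at 0.282 CPM. This is about 4.52 reads. In that library 12.0% of 3047 genes with a median of 20 to 60 CPM elsewhere were under 2 CPM. The share was 0.659% to 2.10% for the other cultured libraries. The part of that library as a whole in the low Itgb5 value was not tested.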

How the results depend on the processing

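The counts of members called (0 of 9 in each comparison of the knockout experiment, between Cre lines included) held under all alternatives run. Counts of all genes called there were small and moved. In the Cxcr4 knockout 1 gene became 8 with no filter, 0 with no trend and 6 with array weights. For the difference between knockouts 1 gene became 2, 0 and 2, and between Cre lines 8 genes became 13 with no filter, 0 with no trend, 4 with a pseudocount of 0.1 CPM, 4 at 5 CPM and 1 with quantile normalization. Leaving out a library, or both first control libraries at once (an alternative chosen after seeing the data), gave 1 to 150 genes in the Cxcr4 knockout, 0 to 151 in the Cxcl12 knockout, 1 to 30 for the difference and 1 to 95 between lines. The highest counts came without the second Lysm-Cre control (150, 30 and 95) and without the second K8-Cre control (151). The replicate block gave 0 members called and 1 gene in the Cxcl12 knockout and changed no member's call. Deviations of libraries with the same number correlated at 0.0573 to 0.139, and with 2 libraries per group the numbers were not taken to pair them. The number did go with depth, since the first library of each group held fewer reads and more genes at 0. Members that turned direction when libraries were left out ranged as follows: in the Cxcr4 knockout Mertk -1.49 to 0.59, Gas6 -0.19 to 0.52, Pros1 -0.45 to 0.15, Mfge8 -0.997 to 0.32, Itgb5 -0.0997 to 2.26, Scarb1 -0.36 to 0.27; in the Cxcl12 knockout Mertk -1.12 to 4.02, Axl -1.20 to 0.38, Pros1 -0.54 to 0.47, Mfge8 -0.93 to 0.0036, Itgav -0.0089 to 1.22, Itgb5 -1.03 to 1.84, Elmo1 -0.18 to 0.88; for the difference Mertk -4.47 to 1.71, Axl -1.01 to 0.58, Pros1 -0.62 to 0.40, Mfge8 -0.53 to 0.78, Itgav -0.59 to 0.64, Itgb5 -0.76 to 2.11, Elmo1 -0.50 to 0.82, Scarb1 -0.042 to 0.60; between lines Axl -0.52 to 0.28, Elmo1 -0.078 to 0.58. With quantile normalization the difference between knockouts was -0.041 for Itgav and -0.051 for Elmo1, and with median-ratio scaling Axl between lines was 0.034; the cause was not tested. In the CXCR4 sort, 0 members and 0 genes were called with no filter and with no trend; against each positive library alone the difference is a value with no test. Requiring 1 CPM in place of 10 counted 2 members with CXCL12 and 2 with GSK690693 against untreated, where Tyro3 joins Itgb5. With both agents against untreated it counted 3, where Itgb5 joins. For GSK690693 added to CXCL12 it counted 4 and for CXCL12 added to GSK690693 it counted 5, where Tyro3 joins. It counted 7646, 8296, 8984, 9495 and 8617 genes in the 5 culture comparisons (CXCL12, GSK690693 and both against untreated, GSK690693 added to CXCL12, CXCL12 added to GSK690693) and 3042 in P4 cells at 1 FPKM. The numbers of genes that reached this lower level are not given here, so the member counts at 1 CPM cannot be read against a share of all genes. Scaling by median ratio moved the median of all genes in the Cxcl12 knockout from 0.36 to 0.22. Library number and within-group spread limit the knockout comparisons, and 1 library per arm limits the CXCR4-negative, culture and P4 values.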
